A study of Mus musculus with 9 samples.

Results

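The 9 protein arginine methyltransferase (PRMT) genes of the mouse were examined for listed peaks of H3R2me2a, the asymmetric dimethylation of arginine 2 of histone H3. The genes were taken by name, as Prmt1, Prmt2, Prmt3, Carm1, Prmt5, Prmt6, Prmt7, Prmt8 and Prmt9, and all 9 matched by symbol among 21631 protein-coding genes on chromosomes 1 to 19 and X. A peak was assigned to a gene when it overlapped the gene or 5 kb either side by at least 1 bp. By this rule the 6 peak lists held 227 peaks at the family.

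Each list came from chromatin immunoprecipitation with sequencing on bone marrow cells, called leukemia cells in the series' design text. Cells without either deletion (wild type, WT) were set beside cells lacking Prmt6 (Prmt6KO) or Igf2bp2 (Igf2bp2KO), in 2 H3R2me2a libraries per genotype. All were cultured in interleukin 3, interleukin 6 and stem cell factor. The labels name neither the deleted segments nor the way of deletion, the animals' age or their number, and p-values measure only the spread between libraries, which may be technical. Peak lists of a histone mark carry no expression, so the labelled tissue was not checked.

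PRMT enzymes transfer methyl groups from S-adenosylmethionine to arginine residues of histones and other proteins. Type I enzymes make asymmetric dimethylarginine, type II enzymes make symmetric dimethylarginine, and type III enzymes stop at monomethylarginine. PRMT6 is the main writer of H3R2me2a, a mark known to oppose methylation of the neighbouring lysine 4 by the MLL and SETD1 complexes. The genes of the family, with the deleted Prmt6 among them, can thus be read for the mark that one of the members deposits.

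The lists differed in length, and the counts below are read against that. On chromosomes 1 to 19 and X the WT lists held 162454 and 133960 peaks. Those of Prmt6KO held 812414 and 430225, and those of Igf2bp2KO 961 and 1221. The background of the lists, the measure of depth they carry, was between 0.736 and 1.46 fragments. The lowest summit listed held 4 fragments in both WT libraries, 2 and 3 in Prmt6KO, and 8 and 7 in Igf2bp2KO. For each region, the mean density of a library gave an expected number of peaks. WT replicate 1 stood apart from WT replicate 2 on the sex chromosomes, with an X density of 0.181 times its autosomal density against 1.20, and 1.35% against 0.0297% of its peaks on Y. No PRMT gene lies on a sex chromosome, and each value below is given per library. The mean density includes X, however, so the low X density of WT replicate 1 lowers its expected numbers at these autosomal genes.

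No listed peak met the start-site window of the 8 PRMT genes that could be checked. RefSeq promoter windows (build GRCm38.p6, which is mm10), from 250 bases before to 50 after a start site, were matched for all members but Carm1, as 9 windows. A peak overlapped 0 of these 9 windows in each of the 6 libraries. Among all 32619 windows on these chromosomes, 1.91% and 1.15% met a WT peak. The shares were 14.0% and 4.95% for Prmt6KO and 0.0521% and 0.0368% for Igf2bp2KO, so few of 9 windows would meet a peak at these shares. The 250 bases before the start site are shown for 3 genes, 5′ to 3′ on the gene's strand, with each CG dinucleotide in capitals. Prmt6 is the gene deleted in Prmt6KO, Prmt5 had the WT replicate 1 summit closest to a start site of the family, and Prmt8 had the most CG dinucleotides.
Prmt6, chr3:110251000-110251249, minus strand: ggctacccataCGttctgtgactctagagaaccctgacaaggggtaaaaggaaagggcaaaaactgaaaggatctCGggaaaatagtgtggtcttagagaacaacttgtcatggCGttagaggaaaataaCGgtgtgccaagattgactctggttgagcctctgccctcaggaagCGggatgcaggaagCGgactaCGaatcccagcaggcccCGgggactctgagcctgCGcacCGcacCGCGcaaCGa
Prmt5, chr14:54517471-54517720, minus strand: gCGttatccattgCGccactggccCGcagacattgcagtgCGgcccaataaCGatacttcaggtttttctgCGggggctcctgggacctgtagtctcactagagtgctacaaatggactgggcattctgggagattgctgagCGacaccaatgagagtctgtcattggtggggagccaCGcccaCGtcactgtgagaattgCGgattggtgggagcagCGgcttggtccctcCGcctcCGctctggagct
Prmt8, chr6:127769156-127769405, minus strand: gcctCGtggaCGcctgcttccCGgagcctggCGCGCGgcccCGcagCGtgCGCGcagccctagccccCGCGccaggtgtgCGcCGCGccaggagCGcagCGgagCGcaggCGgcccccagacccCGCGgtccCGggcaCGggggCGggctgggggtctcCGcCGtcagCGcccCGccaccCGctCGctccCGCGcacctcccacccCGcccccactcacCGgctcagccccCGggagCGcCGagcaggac

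The Prmt6 window holds 13 CG dinucleotides and 54.0% G and C, and the Prmt5 window 13 and 58.0%. The Prmt8 window holds 37 and 82.0%. CG reads the same on both strands. It occurs at least once in 92.2% of all windows of this length, whose median is 6 per window. All members' windows lay above that median, with 13 to 37. The summit nearest to the Prmt6 start site lay 1.88 kb upstream in WT replicate 1 and 11.3 kb downstream in WT replicate 2. It lay 1.03 kb downstream in Prmt6KO replicate 1 and 6.45 kb downstream in replicate 2. At Prmt5, WT replicate 1 had a summit of 5 fragments 0.441 kb upstream, in a peak at 54517817 to 54518016, and the nearest WT replicate 2 summit was 28.9 kb away. At Prmt9 the nearest summits were 0.964 kb upstream in WT replicate 2, 1.25 kb upstream in Prmt6KO replicate 1 and 1.66 kb upstream in Prmt6KO replicate 2, in 3 peaks that did not overlap each other, and 39.4 kb upstream in WT replicate 1.

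Prmt6 (gene 99890, chromosome 3, 110246104 to 110250999, a gene of 4.90 kb) comes first as the deleted gene. Within the gene and 5 kb, WT replicate 1 had 4 peaks where its mean density gives 0.958, and WT replicate 2 had 0 where 0.790 were expected. The Prmt6KO libraries had 7 and 4 where 4.80 and 2.54 were expected. Igf2bp2KO had 0 and 0 at expectations of 0.00575 and 0.00729. Among the WT and Prmt6KO libraries, WT replicate 1 was thus the highest relative to density, at 4.17 times, WT replicate 2 the lowest, and the Prmt6KO libraries lay between them at 1.46 and 1.58 times. The exact Poisson interval (95%, counting error only) of the 4 peaks of WT replicate 1 was 1.09 to 10.2, and that of the 0 of replicate 2 reached 3.69.

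Inside the Prmt6 gene itself, the list labelled Prmt6KO replicate 1 held 4 peaks, at an expectation of 1.64, and that of replicate 2 held 0, at 0.865. WT had 1 and 0, at 0.326 and 0.269. In Prmt6KO replicate 1 the 4 peaks had summits of 3 or 4 fragments 1.03, 2.29, 2.82 and 4.78 kb downstream of the start site, with fold enrichments of 2.30 to 2.88. The last of them, at 110245759 to 110246385, crossed the gene's far end. None of the 4 had a q below 0.575, the authors' peak caller's value. The deleted segment being unknown here, whether these peaks go against the genotype label cannot be told. The WT replicate 1 peak in the gene, at 110248806 to 110249030 with 5 fragments, overlapped the Prmt6KO replicate 1 peak at 110248607 to 110248806 by its first base.

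Past the far end of Prmt6 the lists of 3 libraries met at 2 neighbouring places. At the first, WT replicate 1 had a peak at 110243202 to 110243401 with a summit of 5 fragments, which overlapped a Prmt6KO replicate 2 peak at 110243064 to 110243316, also with 5. That peak in turn overlapped a Prmt6KO replicate 1 peak at 110242920 to 110243164 with 4 fragments. The WT replicate 1 summits of the first and the second place lay 7.72 and 6.60 kb downstream of the start site. At the second, nearer to the gene, the same chain of overlaps had summits of 6 fragments in WT replicate 1, 4 in Prmt6KO replicate 2 and 3 in Prmt6KO replicate 1. WT replicate 2 had no peak there. The lowest q of these 6 peaks was 0.575, in Prmt6KO replicate 1.

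**Figure D1:**
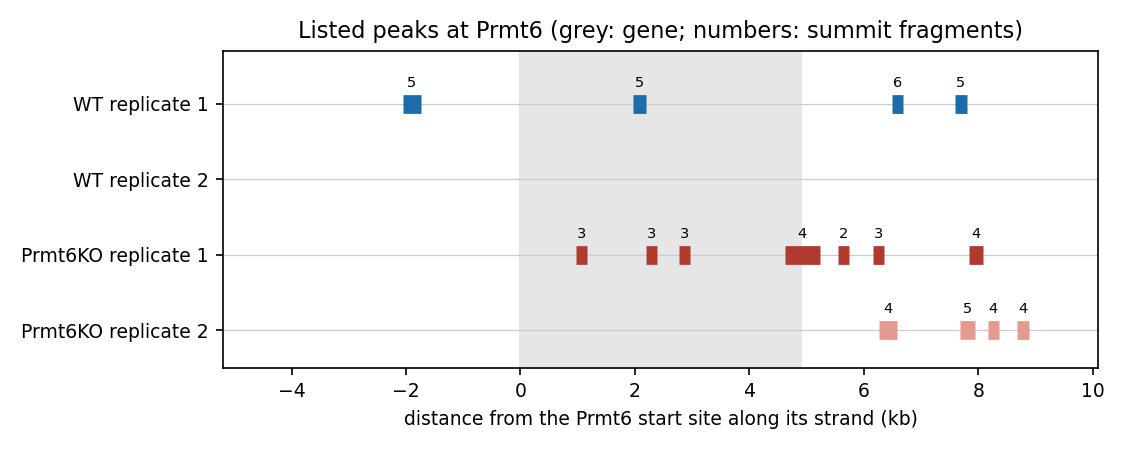
Listed peaks at Prmt6 in the WT and Prmt6KO libraries, by distance in kb from the start site along the gene's strand. The grey band is the gene, each bar is a peak with its summit fragments above it, and WT replicate 2 has none, while the Prmt6KO replicate 2 peaks all lie beyond the gene's far end.

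Scaled to density, Prmt6 did not separate the genotypes. On the scale log2((peaks + 0.5)/(expected + 0.5)), WT was at 1.63 and -1.37 and Prmt6KO at 0.50 and 0.57. The difference of Prmt6KO minus WT was 0.41, with SDs of 2.12 in WT and 0.0454 in Prmt6KO (n = 2 each; two-sided exact permutation p = 1.00). The smallest p that 2 libraries against 2 allow is 0.333, so no gene could pass a threshold of 0.05. The sign turned without WT replicate 2, to -1.09. The counts at Prmt6 were set beside 1096 other genes with regions within 5% of its length. Of these, 2.74% had at least 4 peaks in WT replicate 1, 15.4% at least 7 in Prmt6KO replicate 1, and 13.5% at least 4 in Prmt6KO replicate 2. The genes whose 6 counts were closest to those of Prmt6 were Gm7970, Spink12 and Uqcrfs1, each with a summed absolute difference of 2 peaks. Uqcrfs1, the Rieske iron-sulfur subunit of respiratory complex III, had 2 and 0 peaks in WT and 7 and 4 in Prmt6KO.

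Among the other type I genes, only Carm1 (gene 59035, chromosome 9, 21546894 to 21589467) had no peak in either WT library, as had 20.3% of all genes. The product of Carm1, also called PRMT4, is a coactivator of nuclear receptors that methylates arginines of histone H3. WT had 0 and 0 peaks at Carm1 where 3.34 and 2.75 were expected, and Prmt6KO had 17 and 5 where 16.7 and 8.84 were expected. Both Prmt6KO libraries thus lay above both WT libraries on the scaled measure. Relative to their own density they stood at 1.02 times in replicate 1 and 0.565 times in replicate 2. The difference was 2.45 on the log2 scale (WT -2.94 and -2.70, Prmt6KO 0.02 and -0.76; exact permutation p = 0.333, the smallest possible), and 99.5% of all genes had a lower one. Both WT counts being 0, the size depends on the pseudocount: it was 4.58 with 0.1 and 1.67 with 1 in place of 0.5. At Prmt7 and Prmt9, which have a WT library at 0, a pseudocount of 0.1 likewise gave 3.14 and 2.64. The 1 Mb around Carm1 was also sparse in WT, where its density gives 1.64 and 0.740 peaks for the region, against 15.1 and 4.23 in Prmt6KO. With that local density the difference was 1.90. The part of low local density in the result was not tested further.

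Carm1 also held the strongest Prmt6KO peak of the family. In Prmt6KO replicate 1 it lay inside the gene at 21581994 to 21582316, with 8 fragments at the summit, a fold enrichment of 5.18 and a q of 0.000997. A Prmt6KO replicate 2 peak at 21581975 to 21582351 covered it, with 5 fragments, a fold enrichment of 2.72 and a q of 0.873. Neither WT library and neither Igf2bp2KO library had a peak there. The next highest summit of Prmt6KO replicate 1, with 6 fragments and a q of 0.0656, lay at -4.73 kb from the gene's lower-coordinate end, within the neighbouring gene AB124611.

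**Figure D2:**
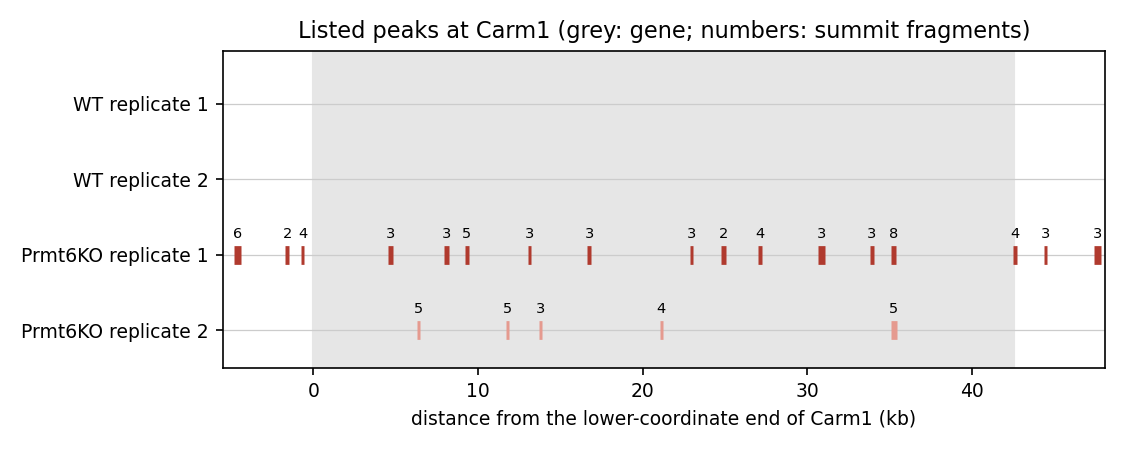
Listed peaks at Carm1, by distance in kb from the gene's lower-coordinate end, with the gene in grey and the summit fragments above each bar. Both WT rows are empty, Prmt6KO replicate 1 has 17 peaks and replicate 2 has 5, and the peaks of the Prmt6KO libraries coincide at about 35.3 kb.

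Prmt2 and Prmt8 showed the same order of genotypes at smaller differences. Prmt2, a coactivator with an SH3 domain (gene 15468, chromosome 10, 76207226 to 76237865), had 1 and 1 peaks in WT at expectations of 2.58 and 2.13, and 16 and 7 in Prmt6KO at 12.9 and 6.85. The scaled difference was 1.09 (WT -1.04 and -0.81, Prmt6KO 0.30 and 0.03; exact permutation p = 0.333, the smallest possible). Prmt2 was the single member at which the WT libraries shared a peak, at 76232245 to 76232527 in replicate 1 and 76231830 to 76232436 in replicate 2, each with 5 fragments and a q of 1.00. Prmt8, the membrane-anchored enzyme of the brain (gene 381813, chromosome 6, 127689009 to 127769467), had 2 and 2 peaks in WT at 5.73 and 4.73, and 26 and 9 in Prmt6KO at 28.7 and 15.2. All libraries were below their density at Prmt8, and the scaled difference was 0.76 (WT -1.32 and -1.06, Prmt6KO -0.14 and -0.72; exact permutation p = 0.333).

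Prmt1 and Prmt3 did not separate the genotypes. Prmt1 makes most of the asymmetric dimethylarginine of cells (gene 15469, chromosome 7, 44976755 to 44986420). It had 1 and 0 peaks in WT at expectations of 1.26 and 1.04, and 4 and 3 in Prmt6KO at 6.30 and 3.34. Its scaled values overlapped, with WT at -0.23 and -1.62 and Prmt6KO at -0.60 and -0.13 (difference 0.56, exact permutation p = 0.667). The 3 Prmt6KO replicate 2 peaks lay in the flanks, in the neighbouring genes Cpt1c and Gm15545. Prmt3, a zinc finger enzyme that methylates a ribosomal protein (gene 71974, chromosome 7, 49778319 to 49861264), was the longest region at 92.9 kb. It had 7 and 4 peaks in WT at 5.89 and 4.86, and 30 and 12 in Prmt6KO at 29.5 and 15.6. The difference was -0.16 (WT 0.23 and -0.25, Prmt6KO 0.03 and -0.37; exact permutation p = 0.667).

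Prmt3 held the one WT peak of the family past the q threshold. In WT replicate 1 the peak at 49798789 to 49799147, 20.6 kb downstream of the start site and inside the gene, had 9 fragments, a fold enrichment of 4.06 and a q of 0.0192. No peak of another library overlapped it. With the Carm1 peak it made 2 peaks of 227 at a q of 0.05 or below. Genes with such a peak in at least 1 library were 8.41% of all genes in WT and 11.1% in Prmt6KO, against 1 of 9 members in each.

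The type II genes had their WT peaks in 1 library each, as had Prmt1, Prmt6 and Prmt7. Prmt5 is the main enzyme of symmetric dimethylation (gene 27374, chromosome 14, 54507182 to 54517470). It had 2 and 0 peaks in WT at expectations of 1.30 and 1.07, and 5 and 1 in Prmt6KO at 6.50 and 3.44, with a scaled difference of -0.28 (WT 0.47 and -1.65, Prmt6KO -0.35 and -1.39; exact permutation p = 1.00). Prmt9, which methylates a splicing factor (gene 102182, chromosome 8, 77549388 to 77581338), had 0 and 3 peaks in WT at 2.67 and 2.20. It had 20 and 9 in Prmt6KO at 13.3 and 7.07, which made it the member with the highest Prmt6KO replicate 1 ratio, 1.499. Its scaled values overlapped, with WT replicate 2 between the Prmt6KO libraries (WT -2.66 and 0.37, Prmt6KO 0.57 and 0.33; difference 1.59, exact permutation p = 0.667). At Prmt9 a peak of WT replicate 2, at 77561468 to 77561667, overlapped peaks of both Prmt6KO libraries, with summits of 5, 3 and 4 fragments.

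Prmt7, the type III enzyme (gene 214572, chromosome 8, 106211054 to 106251694), had 1 and 0 peaks in WT at expectations of 3.22 and 2.65. It had 16 and 8 in Prmt6KO at 16.1 and 8.52, close to density in both libraries. The scaled difference was 1.94 (WT -1.31 and -2.66, Prmt6KO -0.01 and -0.09; exact permutation p = 0.333, the smallest possible). The Prmt6KO libraries shared 3 peaks within it, at summits of 2 to 5 fragments.

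**Figure D3:**
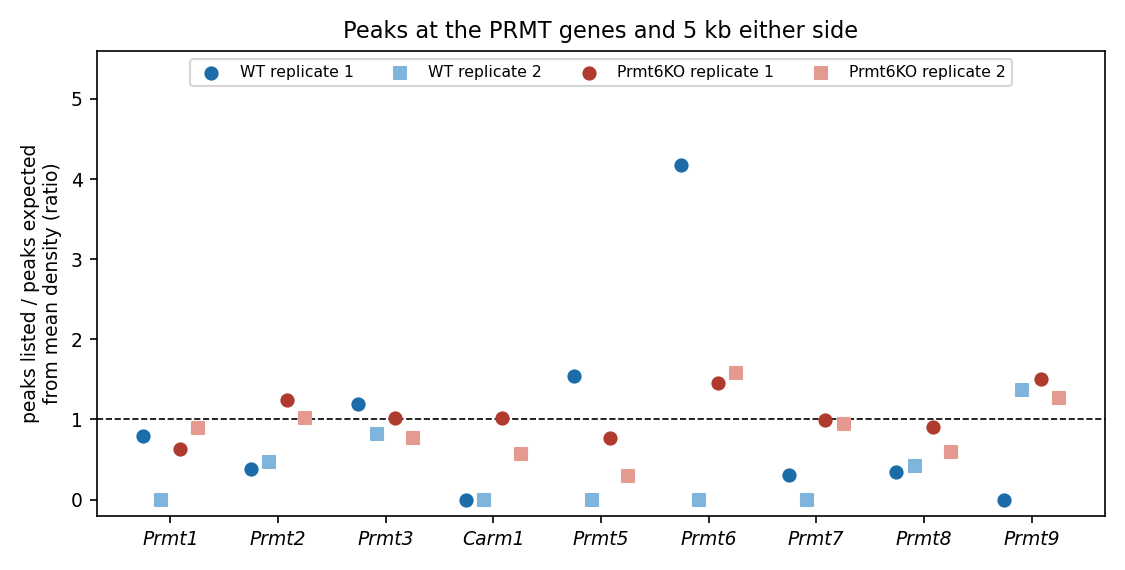
Peaks listed at each PRMT gene and 5 kb either side divided by the number expected from the library's mean density, 1 point per library, with the dashed line at a ratio of 1. Most WT points lie below 1, Prmt6 in WT replicate 1 is the highest at 4.17, and the Prmt6KO points run from 0.291 to 1.58.

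The family as a whole lay below mean density in WT. Summed over the 9 regions, WT had 18 and 10 peaks at expectations of 26.9 and 22.2, or 0.668 and 0.450 times density. Prmt6KO had 141 and 58 at 135 and 71.4, or 1.05 and 0.813 times. Igf2bp2KO had 0 and 0 at 0.160 and 0.203. All 21631 protein-coding genes together were at 0.940 and 0.900 times in WT and at 0.997 and 0.890 times in Prmt6KO. The median member ratio was 0.387 and 0 in WT, where the median over all genes was 0.720 and 0.531, and 1.02 and 0.899 in Prmt6KO, where it was 0.979 and 0.718. With the density of the surrounding 1 Mb in place of the genome's, the summed WT ratios were 1.02 and 0.879. At a fold enrichment of at least 3, the summed ratios of WT and Prmt6KO overlapped.

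Most peaks lay within the genes rather than the flanks, as did most of the peaks expected from mean density. In WT 14 and 9 peaks overlapped a gene body, at expectations of 21.3 and 17.5, and in Prmt6KO 111 and 47 did, at 106 and 56.3.

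At least 1 peak in both libraries occurred at 3 of 9 members in WT (Prmt2, Prmt3 and Prmt8) and at 9 of 9 in Prmt6KO. The same rule called 48.7% of all genes in WT and 88.4% in Prmt6KO. With 9 members, neither count is read as a difference from these shares. The members' regions were longer, with a median of 42.0 kb against 27.3 kb. In Igf2bp2KO 0 of 9 members and 0.407% of all genes were called, and 99.2% of all genes had no peak in either library, so an empty list there carries no information on the family. Of the WT peaks at the family, 1 of 18 and 1 of 10 reached 8 fragments, the lowest summit listed in Igf2bp2KO replicate 1. Without a peak in either WT library was 1 member, Carm1, as were 20.3% of all genes.

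Both Prmt6KO values lay above both WT values at 4 of 9 members (Prmt2, Carm1, Prmt7 and Prmt8), and below at 0 of 9. Over all genes 26.5% were above and 14.4% below. The median difference was 0.76 over the members and 0.22 over all genes. Without WT replicate 1, 7 members were above, as were 47.9% of all genes. Without WT replicate 2, 3 were below (Prmt3, Prmt5 and Prmt6), as were 32% of all genes. Prmt1 turned to -0.13 without WT replicate 2. Prmt3 and Prmt5 turned without WT replicate 1, to 0.0819 and 0.78, and without Prmt6KO replicate 2, to 0.0361 and 0.24. The split over all genes depended on the height of the peaks counted. At higher thresholds many regions hold 0 peaks, and libraries at 0 are then ordered by their expected counts alone, so that such calls show no difference in peaks. With WT and Prmt6KO lists of equal length, 3 members were above (Prmt2, Carm1 and Prmt7). Prmt5 was below by its expected counts alone, with 1 and 0 peaks in WT and 0 and 0 in Prmt6KO. On these lists 10.3% of all genes were above and 32% below, 44.5% of the latter with a library at 0 in both groups, and the median over all genes was -0.0026. At a fold enrichment of at least 3, 0 members were above and 5 lay below by their expected counts alone. Of these, Prmt5, Prmt6 and Prmt7 had 0 peaks in all 4 libraries, Prmt3 had 1 in each, and Prmt1 had 1 in WT replicate 1 and 0 elsewhere. Over all genes 9.91% were above and 42.3% below, 84.4% of the latter with a library at 0 in both groups, and the median was -0.23. A peak of that height in both libraries occurred at 1 member in WT (Prmt3; 17.3% of all genes) and 2 in Prmt6KO (Prmt3 and Prmt9; 29% of all genes). Counting only peaks with a q of 0.05 or below, 0 members were above, and 7 had 0 peaks in all 4 libraries. Prmt3, with its 1 peak in WT replicate 1 and 0 elsewhere, was below by its expected counts alone. Over all genes 0.698% were above and 4.28% below. No member then had a peak in both libraries, where 1.3% of all genes did in WT and 1.79% in Prmt6KO. With the density of the surrounding 1 Mb, 3 members were above (Prmt2, Carm1 and Prmt7) and 1 below (Prmt3), with 22.7% and 15.3% of all genes. Among the members, the difference of Carm1 stayed positive under every alternative run.

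**Figure D4:**
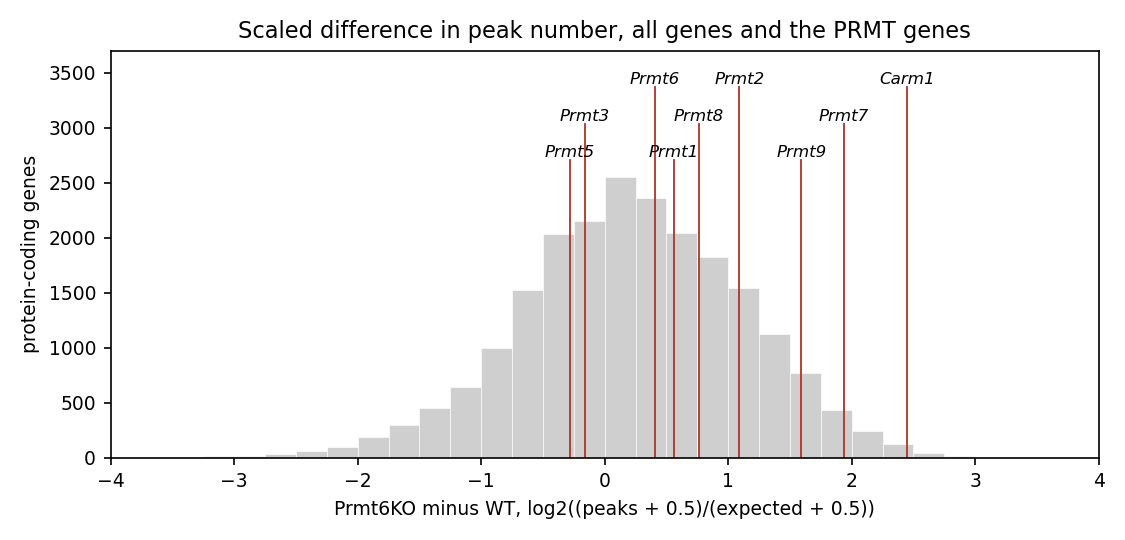
Prmt6KO minus WT in the log2 scaled number of peaks, as a histogram over the protein-coding genes (grey, differences between -4 and 4 shown) with the PRMT genes as red lines. The members run from -0.28 at Prmt5 to 2.45 at Carm1, and all but Carm1 and Prmt7 lie within the 5th to 95th percentile of all genes, -1.30 to 1.68.

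The heights of the peaks differed between the libraries as their lowest listed summits did. At the family, the median summit held 5 fragments in WT replicate 1 and 6 in WT replicate 2, with highest summits of 9 and 8. In Prmt6KO it held 3 and 5, with highest summits of 8 and 7. A summit of at least 5 fragments was reached by 16 of 18 and 9 of 10 WT peaks, and by 5 of 141 and 32 of 58 Prmt6KO peaks. Of the 141 peaks of Prmt6KO replicate 1, 34 had 2 fragments and 75 had 3, heights that no WT list holds. Counted at 5 fragments or more, both libraries had a peak at 3 members in WT (Prmt2, Prmt3 and Prmt8; 46.4% of all genes) and at 3 in Prmt6KO (Prmt3, Carm1 and Prmt9; 42.4% of all genes). At that height Carm1 had 3 and 3 peaks in Prmt6KO and 0 and 0 in WT. Prmt7 had 0 and 2 in Prmt6KO and 0 and 0 in WT, and its call as above rests on the expected count of Prmt6KO replicate 1. With it 2 members lay above WT and 0 below, where 19.1% and 14% of all genes did.

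**Figure D5:**
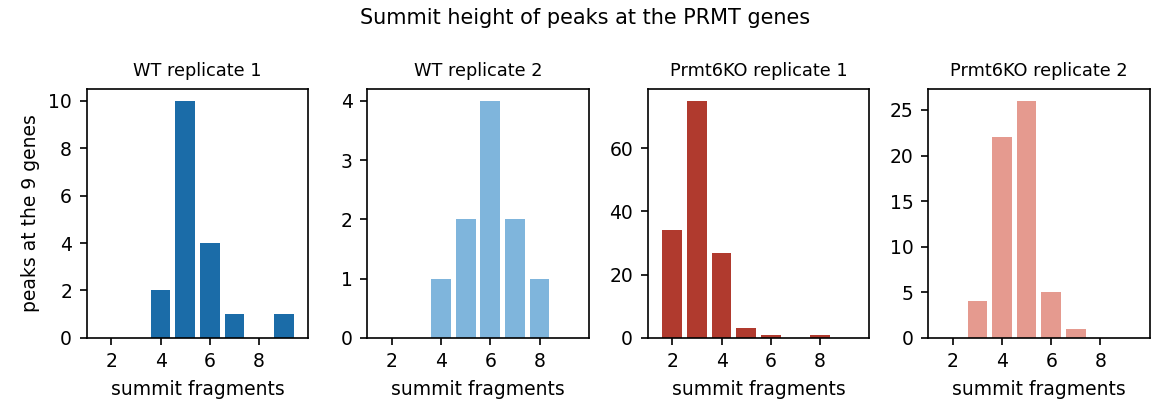
Number of peaks at the 9 PRMT genes by the fragments at their summit, 1 panel per library, each with its own count axis. WT summits start at 4 fragments, while 109 of the 141 peaks of Prmt6KO replicate 1 have 2 or 3.

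Replicates shared about as many peaks at the family as elsewhere. In WT, 1 of 18 and 1 of 10 peaks overlapped a peak of the other library (5.56% and 10.0%), with 6.06% and 7.34% over all peaks. In Prmt6KO 13 of 141 and 13 of 58 did (9.22% and 22.4%), with 11.5% and 21.6% over all peaks. A shared peak occurred at 7 of 9 members in Prmt6KO, all but Prmt1 and Prmt5, beside 52.5% of all genes. In WT it occurred at 1 of 9, beside 10.3% of all genes. The members' regions were longer, with a median of 42.0 kb against 27.3 kb, and neither count is read as a difference from these shares. Across genotypes, 4 of 18 and 2 of 10 WT peaks overlapped a Prmt6KO peak, and 3 of those 4 lay at Prmt6. The Prmt6KO lists held 3.16 and 1.67 peaks per 10 kb. The share over all WT peaks is not given here, so these overlaps are not read as particular to the family or to Prmt6.

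Genes that work with the family were given by a list of 19 partners, readers and removers of arginine methylation and a list of 12 genes of the lysine 4 methylation complexes. Of the first list 11 genes had a peak in both libraries in WT and 18 in Prmt6KO, beside 48.7% and 88.4% of all genes. Both Prmt6KO values were above WT at 3 (Mat2a, Ddah2 and Ndufaf7) and below at 4 (Riok1, Coprs, Btg1 and Tdrd3), beside 26.5% and 14.4% of all genes. The median difference was -0.30, against 0.22 over all genes. Mat2a, the synthase of the methyl donor, had 0 and 0 peaks in WT at expectations of 1.08 and 0.887. It had 9 and 2 in Prmt6KO at 5.38 and 2.85, a difference of 1.70. Wdr77, the partner of PRMT5, had 0 and 2 in WT at expectations of 1.30 and 1.07. It had 8 and 5 in Prmt6KO at 6.49 and 3.44, a difference of 0.97 with overlapping scaled values. Tdrd3, a Tudor reader of asymmetric dimethylarginine, had 13 and 13 in WT at expectations of 8.82 and 7.27. In Prmt6KO it had 48 and 19 at 44.1 and 23.4, a difference of -0.75. Btg1, a cofactor of PRMT1, had 2 and 2 in WT at expectations of 1.02 and 0.838. In Prmt6KO it had 6 and 2 at 5.09 and 2.69, a difference of -0.88. Spin1, a Tudor-like reader of histone H3, had 8 and 3 in WT at expectations of 4.10 and 3.38. In Prmt6KO it had 21 and 7 at 20.5 and 10.9, a difference of -0.65 with overlapping scaled values. Ddah1, which breaks down free asymmetric dimethylarginine, had 3 and 5 in WT at expectations of 9.22 and 7.60. In Prmt6KO it had 46 and 15 at 46.1 and 24.4, a difference of 0.67 with overlapping scaled values.

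Of the lysine 4 methylation list 5 of 12 genes had a peak in both libraries in WT and 8 in Prmt6KO, beside the same 48.7% and 88.4%. Above were 2 (Kmt2a and Kmt2d) and below 1 (Kmt2b), beside the same 26.5% and 14.4%, with a median difference of 0.37. Kmt2a, which encodes MLL1, had 3 and 1 peaks in WT at expectations of 5.58 and 4.60. In Prmt6KO it had 30 and 9 at 27.9 and 14.8, a difference of 0.99. Its highest WT replicate 1 summit had 10 fragments and a q of 0.00324 at 44867397 to 44867687 on chromosome 9. Kmt2c had 22 and 13 in WT at expectations of 15.0 and 12.4. In Prmt6KO it had 82 and 73 at 75.0 and 39.7, a difference of 0.20 with overlapping scaled values. The highest WT replicate 1 summit of Kmt2c equally held 10 fragments. Dpy30, a shared subunit of these complexes, had 4 and 0 in WT at expectations of 2.19 and 1.81. In Prmt6KO it had 11 and 7 at 11.0 and 5.81, a difference of 0.86 with overlapping scaled values. Wdr5, whose product binds the histone H3 tail, had 0 and 0 in WT at expectations of 2.00 and 1.65. It had 11 and 0 in Prmt6KO at 10.0 and 5.30, a difference of 0.51 with overlapping scaled values. Both lists had 0 genes with a peak in Igf2bp2KO.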

How the data were processed

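The deposited peak lists of 6 H3R2me2a libraries were used, and 3 input libraries were not analysed here. Per the submitters' processing notes, the tools were MACS2 2.1.0, bedtools, HISAT2, Trim Galore and bcl2fastq 2.17 and the build was mm10, with settings not given in the sources used here. Each list came from 1 library, and the deposited values are a fold enrichment (a ratio to background) and the -log10 of a p-value and of a q-value at the summit. The pileup at the summit, a coverage signal in fragments per the file headers, was scaled down in the deposited Igf2bp2KO tables and was divided by its step (0.277 and 0.302) to give fragments. The background is the value that makes fold enrichment equal the pileup plus 1 over the background plus 1.

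Peaks on chromosomes 1 to 19 and X were counted by overlap of at least 1 bp. Expected counts were the peaks per base times the region length plus the mean peak width less 1 base. No chromosome lengths were used here, so bases were the span from the first to the last listed peak of each chromosome, 2571 Mb in all, in place of the planned chromosome lengths. Gene positions came from the RefSeq table of GRCm38.p6, which holds no exons, so exon and intron classes are not used here. Differences were tested by two-sided exact permutation over libraries (Python 3.11.15, scipy 1.17.1). The counting was tested on simulated lists. The PRMT genes were given by name, and they and the lists were chosen with earlier results of these data known. Named beyond the members were listed genes with a peak at a q of 0.05 or below or a peak shared by replicates, at most 8 by fold enrichment, and the 3 genes most like Prmt6. Mat2a, Ddah2, Ndufaf7, Riok1, Coprs, Kmt2b, Kmt2d and Wdr5 were named after their values were seen. Alternatives covered flanks, thresholds, list length, the source of the density, the pseudocount and each left-out library. Depth is known only as the background in fragments, and intervals cover counting error only.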

Additional observations from a re-analysis of the deposited data

How the results depend on the processing

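Of 18 alternatives per gene, the difference of Prmt6KO minus WT at Carm1 kept its direction in all. At a fold of at least 3, Carm1 had 3 and 0 peaks in Prmt6KO and 0 and 0 in WT. At a q of 0.05 or below it had 1 and 0 against 0 and 0. In both settings the direction at Carm1 thus rests on Prmt6KO replicate 1. The difference at Prmt6 changed sign in 8 alternatives. In 2 of these 8 (a q of 0.05 or below and a fold of at least 3) Prmt6 had 0 peaks in all 4 libraries, so the sign comes from the expected counts. With gene bodies alone it was -1.02 at Prmt1 and -0.31 at Prmt6. With flanks of 2 kb it was -0.91 and -0.12, and with flanks of 10 kb -0.22 at Prmt6. At a q of 0.05 or below it was -0.0229 at Prmt1, -0.0438 at Prmt2, -0.0178 at Prmt6, -0.0529 at Prmt7, -0.0848 at Prmt8 and -0.0450 at Prmt9, all with 0 peaks in all 4 libraries, so that these values reflect expected counts and the pseudocount only. At a fold of at least 3 it was -1.12 at Prmt1, -0.28 at Prmt6, -0.50 at Prmt7 (Prmt6 and Prmt7 with 0 peaks in all 4 libraries) and -0.59 at Prmt8. With lists of equal length Prmt6 was at -0.37 and with summits of at least 5 fragments at -0.69, the latter an alternative chosen after seeing the data, as was the density of the surrounding 1 Mb. A pseudocount of 0.1 gave 0.45 at Prmt5.

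Left-out libraries gave these ranges of the difference: -1.09 to 1.90 at Prmt6, -0.13 to 1.26 at Prmt1, -0.40 to 0.0819 at Prmt3 and -1.35 to 0.78 at Prmt5. Members above WT were 5 to 7 (33.7% to 48.0% of all genes) and members below 0 to 3 (21.4% to 32.0%). Members with a WT peak, called from 1 library, were 4 to 7 (59.9% to 68.4%). Left-out libraries do not bear on the summed ratios, which are given per library.

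At a q of 0.05 or below, 0 members had a peak in both libraries in WT or Prmt6KO, 0 were above and 1 below (Prmt3, by its expected counts), the summed ratios were 1.21 and 0 in WT and 1.48 and 0 in Prmt6KO, and the Prmt6 gene held 0 peaks in each library. At a fold of at least 3, 1 member in WT and 2 in Prmt6KO had peaks in both libraries, 0 were above and 5 below by expected counts, and the summed ratios were 0.268 and 0.618 in WT and 0.507 and 0.554 in Prmt6KO. With lists of equal length 1 member was below, also by expected counts. At 5 fragments or more, 3 members had peaks in both Prmt6KO libraries, 2 were above, and the Prmt6KO replicate 1 ratio was 0.507. With the density of the surrounding 1 Mb 1 member was below, and the summed ratios were 1.02 and 0.879 in WT and 1.19 in Prmt6KO replicate 2. The cause was not tested. The lowest listed summits differ between libraries, which limits every comparison of counts. The labels do not state whether the replicate numbers pair the libraries. Same-numbered deviations had r = 0.0589 across genes, which are not independent, and this value cannot tell whether they do. With the replicate block the differences were the same (0.56 at Prmt1, 1.09 at Prmt2, -0.16 at Prmt3, 2.45 at Carm1, -0.28 at Prmt5, 0.41 at Prmt6, 1.94 at Prmt7, 0.76 at Prmt8 and 1.59 at Prmt9), and the smallest exact p that the block allows is 0.5.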
